A study of Mus musculus with 8 samples.

Results

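ON bipolar cells of the retina read the output of photoreceptors with a G protein cascade, and 10 genes of that cascade were examined here: Grm6, Nyx, Lrit3, Gpr179, Trpm1, Gnao1, Gng13, Rgs7, Rgs11 and Pcp2. They were taken by gene symbol from a table of 26824 genes, and all 10 were in the table and passed the filter on low counts. The libraries came from mouse retina at 1 month of age, with both retinas of a mouse pooled in each of 8 libraries. Of these, 3 are labelled WT (WT 1 to WT 3) and 5 are labelled as knockouts of Kv8.2 (KO 2 to KO 6). Kv8.2, encoded by Kcnv2, is a silent potassium channel subunit of photoreceptors that works only together with Kv2 subunits. The labels give no strain, sex or allele, and no treatment was applied. The submitters tested 3 WT against 3 KO libraries and do not name the 2 they left out, so all 8 were used.

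In darkness photoreceptors release glutamate, which binds the metabotropic receptor mGluR6 (Grm6) on the dendrites of rod and ON cone bipolar cells. The receptor activates the G protein Go, and the cation channel TRPM1 stays shut. Light stops the release, RGS proteins speed the hydrolysis of GTP on Go, and the channel opens, which gives the b-wave of the electroretinogram. Loss of several of these proteins causes congenital stationary night blindness.

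Gng13 and Gpr179 were the only 2 of the 10 genes that passed the test in all 8 libraries. Gng13, which encodes the gamma subunit of the G protein, fell to 56.9% of its WT level in the libraries labelled KO. Gpr179, which encodes the orphan receptor that anchors the RGS complex, rose to 1.39 times its WT level. For scale, 7.58% of all 20167 tested genes were called, 4.74% higher and 2.84% lower. The median log2 fold change of the 10 genes was 0.21, with 6 of 10 positive, and that of all tested genes was close to 0, at 0.00073. Calls are genes with an adjusted p under 0.05 in edgeR's quasi-likelihood test, adjusted over all tested genes.

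The coding sequence of Gng13 is shown because much of it lies where a gene on the other strand also has exons. The gene (ENSMUSG00000025739) is at chr17:25717171-25719406 on the plus strand of GRCm38 in GENCODE M21, and its 2 transcripts share 1 coding sequence of 201 bases. Capitals mark the 103 coding bases (51.2%) that also lie in exons of the minus-strand gene Chtf18. Pcp2 (ENSMUSG00000004630), at chr8:3623371-3625545 on the minus strand, has the same arrangement with Pet100. Of its 6 coding transcripts, one with 297 coding bases is shown, with capitals on the 117 bases (39.4%) inside Pet100 exons. Both are GENCODE M21 coding sequences, 5′ to 3′.
Gng13: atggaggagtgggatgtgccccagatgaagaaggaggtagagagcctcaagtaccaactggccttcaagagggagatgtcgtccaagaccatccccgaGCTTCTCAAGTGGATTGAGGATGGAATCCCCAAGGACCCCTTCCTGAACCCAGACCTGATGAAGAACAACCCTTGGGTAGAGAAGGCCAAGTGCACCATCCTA
Pcp2: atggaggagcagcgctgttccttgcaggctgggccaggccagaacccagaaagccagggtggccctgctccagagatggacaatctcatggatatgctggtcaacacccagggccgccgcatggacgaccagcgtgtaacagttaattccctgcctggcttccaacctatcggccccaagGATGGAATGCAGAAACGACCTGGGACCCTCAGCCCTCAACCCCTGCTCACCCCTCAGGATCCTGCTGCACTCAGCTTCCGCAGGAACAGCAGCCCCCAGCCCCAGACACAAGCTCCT

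These 2 genes also have the shortest coding transcripts of the 10, at 719 bases for Gng13 and 1447 for Pcp2, against 9219 for Gpr179. Over all exons, 51.6% of Gng13 and 51.5% of Pcp2 overlapped the opposite gene, and 46.2% and 47.2% of their 31-base words occurred in another gene. Among the other 8 genes the largest overlap was 11.0% of Grm6, with the antisense gene Gm12660, and then 3.3% of Rgs11, with Arhgdig. Whether counting used the strand is not given in the sources used here, so reads from the shared bases cannot be assigned to one gene of a pair with certainty. Chtf18 gave 77 to 173 counts in a library and Gng13 718 to 2004, so the overlapping gene was the smaller of the pair in every library. Its log2 fold change was 0.51 (edgeR adjusted p = 0.29), opposite in sign to that of Gng13. Against WT it was -0.07 for KO 2 and KO 3 (edgeR adjusted p = 0.93) and 0.81 for KO 4 to KO 6 (edgeR adjusted p = 0.0077). The ratio of Chtf18 to Gng13 counts was 0.038 to 0.081 in WT and 0.079 to 0.24 in KO, where KO 3 lay inside the WT range.

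A check of the label comes before the values of each cascade gene, because Kcnv2 is the gene the KO label names. Kcnv2 transcripts were present in every library, at 519 (WT 1), 551 (WT 2) and 526 (WT 3) CPM, the count per 1e+06 counts of a TMM-scaled library. The libraries labelled KO 2 to KO 6 held 585, 447, 398, 409 and 409 CPM. Its log2 fold change of -0.24 did not pass (edgeR adjusted p = 0.28). Against WT it was -0.04 for KO 2 and KO 3 (edgeR adjusted p = 0.90) and -0.38 for KO 4 to KO 6 (edgeR adjusted p = 1.16e-04). KO 2 lay above every WT library and the other 4 below, so the count of this gene did not separate the labels. The allele is not given, so whether it should remove these transcripts is not known, and directions above and below refer to libraries as labelled. Libraries also differed in other ways. Totals were 17759146 to 25188870 counts. KO 3 carried lens transcripts at 5.47% of its counts, against at most 0.184% elsewhere. The mitochondrial share of counts ran from 7.09% to 7.92% over the WT libraries, was 6.52% for KO 2 and 5.23% for KO 3, and ran from 3.03% to 3.70% over KO 4 to KO 6. Counts of KO 4, KO 5 and KO 6 were close to each other (chi-square per degree of freedom 5.85 to 6.92), whereas pairs with KO 2 or KO 3 gave 44.0 to 116. The labels name no batch. Results are therefore also given with KO 2 and KO 3 alone and with KO 4 to KO 6 alone, each against the same 3 WT libraries. The division was chosen from these same counts. The p-values of those fits do not allow for that choice, so they are a description. In those fits 0.891% and 42.8% of tested genes were called. All cell types of the retina were pooled in each library, so fewer bipolar cells and less RNA per bipolar cell cannot be told apart.

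Grm6 (ENSMUSG00000000617, chr11:50850685-50866208) encodes the glutamate receptor at the head of the cascade. The 3 WT libraries held 108, 94.5 and 84.6 CPM, and KO 2 to KO 6 held 102, 89.0, 152, 140.2 and 165 CPM. KO 2 and KO 3 lay inside the WT range and KO 4, KO 5 and KO 6 lay above it, so the groups overlapped. Averages were 95.8 ± 11.8 CPM (SD, n = 3) for WT against 129.5 ± 32.7 CPM (SD, n = 5) for KO. A log2 fold change of 0.44 (SE 0.20) did not pass the test (edgeR adjusted p = 0.18). Against WT it was -0.01 for KO 2 and KO 3 (adjusted p = 0.99) and 0.68 for KO 4 to KO 6 (edgeR adjusted p = 6.57e-05). The share of counts from mitochondrial genes was also lowest in KO 4 to KO 6, and its part in the difference was not tested.

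Nyx (ENSMUSG00000051228, chrX:13466110-13489313) encodes nyctalopin, a leucine-rich repeat protein needed to place TRPM1 at the dendritic tips. It measured 32.9, 29.8 and 32.1 CPM in WT, and 46.9, 31.5, 39.9, 41.9 and 38.2 CPM in KO 2 to KO 6. Every KO library except KO 3 was above every WT library, and KO 3 lay inside the WT range. In edgeR the log2 fold change was 0.33 (SE 0.12, adjusted p = 0.11). Nyx is on the X chromosome, and WT 3 was the only library with Y-linked Ddx3y transcripts (2132 counts, against 1 to 3 elsewhere) and nearly without Xist (9 counts, against 30144 to 59443). The level of Nyx in WT 3 lay between those of WT 1 and WT 2.

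Lrit3 (ENSMUSG00000093865, chr3:129787881-129804030) encodes another leucine-rich repeat membrane protein of this synapse. It measured 48.0, 50.2 and 51.6 CPM in WT, and 52.5, 48.6, 58.5, 56.5 and 62.7 CPM in KO 2 to KO 6. Only KO 3 fell inside the WT range, but the spacing was small and the log2 fold change was 0.16 (SE 0.09, edgeR adjusted p = 0.29).

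Gpr179 (ENSMUSG00000070337, chr11:97332109-97352077) encodes the anchor that holds RGS7 and RGS11 at the dendritic tip. Its WT libraries held 134, 120.3 and 139 CPM, against 187, 141, 195, 190.2 and 199 CPM in KO 2 to KO 6. Every KO library exceeded every WT library, which held for 10.8% of tested genes, and KO 3 lay only just above WT 3. The mean rose from 131 ± 9.61 CPM (SD, n = 3) to 183 ± 23.7 CPM (SD, n = 5), a log2 fold change of 0.48 (SE 0.12, edgeR adjusted p = 0.044). This call was close to the threshold. It held in 2 of the 8 fits that left out 1 library, those without KO 2 and without KO 3, and adjusted p ranged from 0.0020 to 0.19 over the 8 (edgeR). With a correction of each library for GC content the log2 fold change was 0.27 (edgeR adjusted p = 0.096).

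Trpm1 (ENSMUSG00000030523, chr7:64153835-64269775) encodes the cation channel that the cascade gates. It measured 239.6, 194 and 234 CPM in WT, and 272, 231, 307, 276 and 269.6 CPM in KO 2 to KO 6. KO 3 fell inside the WT range and the other 4 KO libraries lay above it. WT averaged 222 ± 25.2 CPM (SD, n = 3) and KO 271 ± 26.9 CPM (SD, n = 5), a log2 fold change of 0.28 (SE 0.12, edgeR adjusted p = 0.15). Against WT it was 0.18 for KO 2 and KO 3 (adjusted p = 0.50) and 0.36 for KO 4 to KO 6 (edgeR adjusted p = 0.0031).

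**Figure D1:**
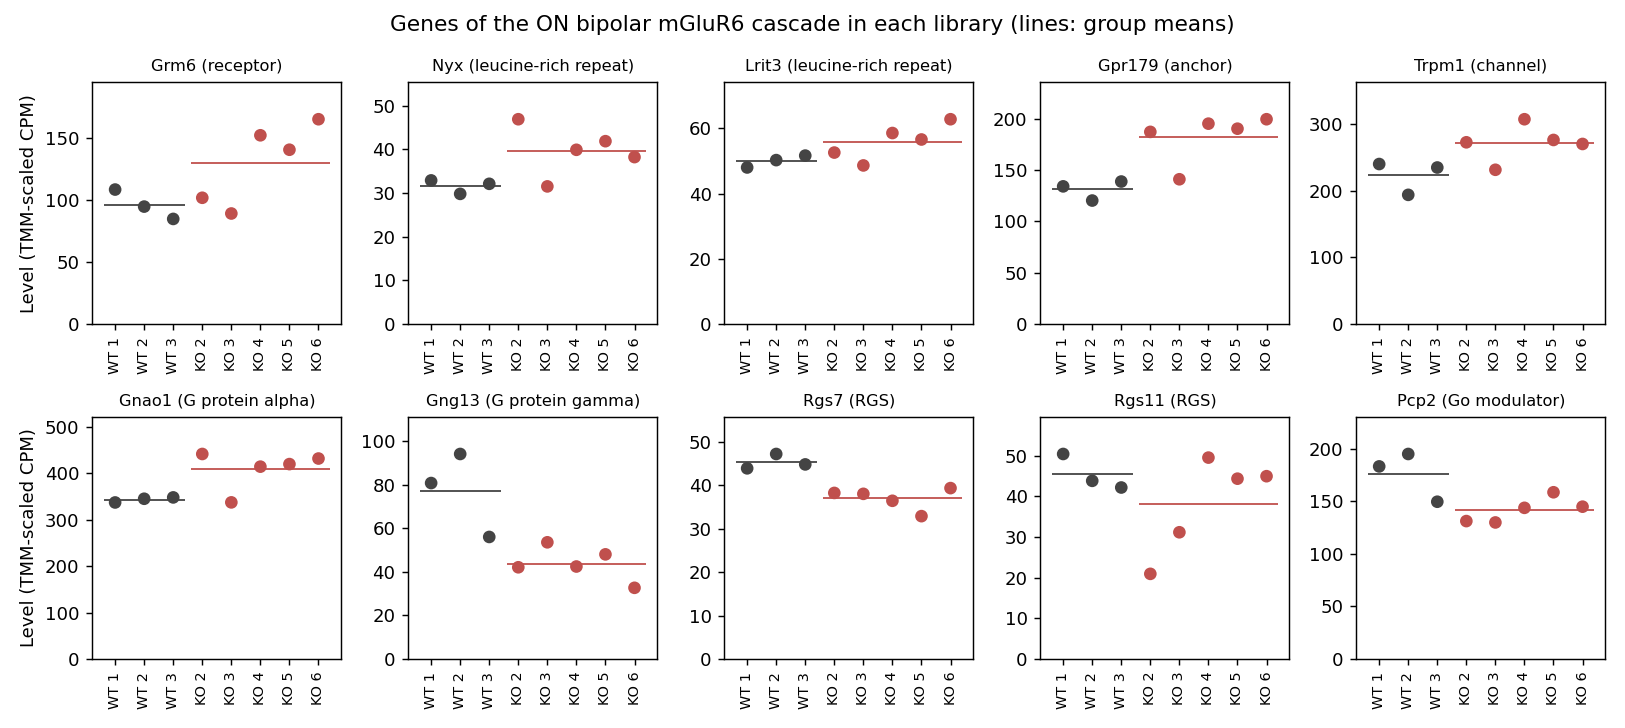
Level of each of the 10 cascade genes in each library, in TMM-scaled CPM on axes that start at 0, with black points for WT, red points for the libraries labelled KO and lines at the group means. Gpr179 was higher in every KO library than in any WT library, Gng13 and Rgs7 were lower, and the other 7 genes overlapped between the groups. Of all tested genes, 10.8% were higher in every KO library than in any WT library and 10.1% lower.

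Of the G protein genes, Gnao1 (ENSMUSG00000031748, chr8:93809966-93969388), the alpha subunit of Go, measured 337, 345 and 348 CPM in WT, and 442, 338, 414, 420.0 and 432 CPM in KO 2 to KO 6. KO 3 was inside the narrow WT range and the other 4 KO libraries were above it. Gnao1 is expressed in many retinal neurons, so its count is not a count from ON bipolar cells alone. With all 8 libraries the log2 fold change was 0.25 (SE 0.11, edgeR adjusted p = 0.17) and turned to -0.03 with corrections for both GC content and length (edgeR adjusted p = 0.86).

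Gng13 measured 80.9, 94.2 and 56.1 CPM in WT, and 42.1, 53.6, 42.5, 48.1 and 32.7 CPM in KO 2 to KO 6. Every KO library lay below every WT library, which held for 10.1% of tested genes, although WT 3 and KO 3 were close to each other. The mean fell from 77.1 ± 19.4 CPM (SD, n = 3) to 43.8 ± 7.79 CPM (SD, n = 5), a log2 fold change of -0.81 (SE 0.18, edgeR adjusted p = 0.028). This was the largest fold change of the 10 genes in all 8 libraries, and 3.78% of all tested genes had a value at or below it. Against WT it was -0.69 (SE 0.21) in KO 2 and KO 3 (edgeR adjusted p = 0.15) and -0.90 (SE 0.17) in KO 4 to KO 6 (edgeR adjusted p = 9.55e-04). The fall kept its sign in all 34 alternatives and was called in 20 of them, including those with corrections for GC content (log2 fold change -1.03), for length (-0.66) and for both (-0.81). Left out one at a time, WT 1, WT 2, KO 4 and KO 5 each ended the call, and adjusted p ranged from 0.0083 to 0.15 over the 8 fits (edgeR). Genes of like length are given for scale. Among the 384 genes within 10% of the length of Gng13, the median log2 fold change was -0.13 and 5.21% were called lower.

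Pcp2 (also called L7), whose GoLoco motif binds Go-class alpha subunits, is a marker of rod bipolar cells in the retina and of Purkinje cells in the cerebellum. It measured 183, 195 and 149.5 CPM in WT, and 131, 129.8, 144, 158 and 145 CPM in KO 2 to KO 6. KO 5 lay above WT 3 and the other 4 KO libraries lay below every WT library. WT averaged 176 ± 23.6 CPM (SD, n = 3) and KO 142 ± 11.7 CPM (SD, n = 5), and the log2 fold change of -0.31 (SE 0.11) did not pass (edgeR adjusted p = 0.10). It kept its sign in all 34 alternatives and passed the test in 2, the GC correction (-0.38) and limma voom (-0.25). Pet100, which shares its bases, had a log2 fold change of -0.36 (edgeR adjusted p = 0.15) at 6.70 to 11.4 CPM, and -0.43 for KO 4 to KO 6 (edgeR adjusted p = 0.032).

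The pair of RGS genes encode the GTPase-activating proteins that turn Go off, and each works in a complex with the Gbeta5 subunit. Rgs7 (ENSMUSG00000026527, chr1:175059087-175492500) measured 43.9, 47.2 and 44.8 CPM in WT, and 38.2, 38.0, 36.4, 32.9 and 39.3 CPM in KO 2 to KO 6. All 5 KO libraries were below all 3 WT libraries, which held for 10.1% of tested genes. Its log2 fold change of -0.29 (SE 0.08) was just short of the threshold (edgeR adjusted p = 0.060). It was -0.25 for KO 2 and KO 3 and -0.31 for KO 4 to KO 6. Its SE was the smallest of the 10 genes.

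Rgs11 (ENSMUSG00000024186, chr17:26202951-26211324) had the largest spread of the 10 genes among the libraries labelled KO, relative to its mean. It measured 50.4, 43.8 and 42.1 CPM in WT, and 20.9, 31.1, 49.5, 44.3 and 44.9 CPM in KO 2 to KO 6. The lowest 2 were KO 2 and KO 3, under all of WT, whereas KO 4, KO 5 and KO 6 lay inside the WT range. The mean was 38.2 ± 11.8 CPM in KO (SD, n = 5) and 45.4 ± 4.36 CPM in WT (SD, n = 3). Over all libraries the log2 fold change was -0.25 (SE 0.23, edgeR adjusted p = 0.51). Against WT it was -0.80 (SE 0.17) for KO 2 and KO 3 (edgeR adjusted p = 0.077) and 0.04 (SE 0.08) for KO 4 to KO 6 (edgeR adjusted p = 0.74). The difference between these KO libraries was not tested, because the labels give no reason to divide them.

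**Figure D2:**
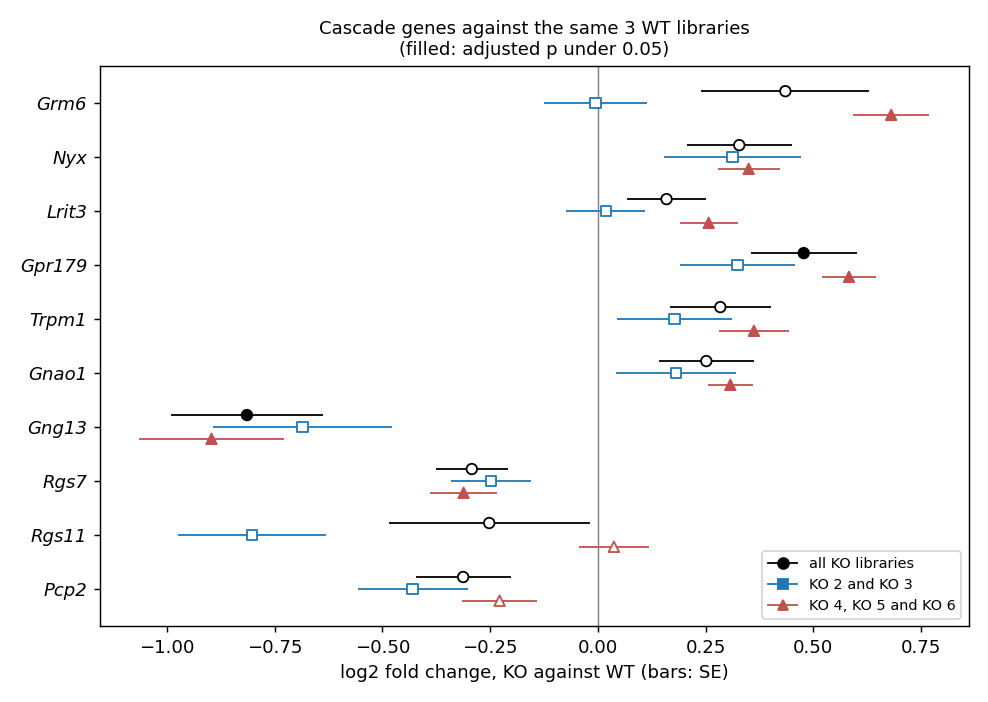
Log2 fold change of each cascade gene (points) with its standard error (bars) from edgeR for all KO libraries (circles), KO 2 and KO 3 (squares) and KO 4 to KO 6 (triangles), each against the same 3 WT libraries, with filled symbols for an adjusted p under 0.05. Gng13 lay between -0.90 and -0.69 in the 3 fits, while Grm6 (-0.01 and 0.68) and Rgs11 (-0.80 and 0.04) differed between the sets of KO libraries.

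Across the list, KO 2 and KO 3 against WT gave 0 of 10 calls at an adjusted p under 0.05 in edgeR. At an unadjusted p under 0.05 there were 5 (Rgs11, Pcp2, Gng13 and Rgs7 lower, Gpr179 higher). For scale, 3831 of 20201 tested genes had an unadjusted p under 0.05 in that fit, and 5506 of 20167 in the fit of all 8 libraries. For KO 2 and KO 3, 5 of the 10 values were positive, and their median was 0.0064. KO 4 to KO 6 against WT gave 8 of 10, with Grm6, Nyx, Lrit3, Gpr179, Trpm1 and Gnao1 higher and Gng13 and Rgs7 lower. With 42.8% of all tested genes called in that fit, against 0.891% in the fit with KO 2 and KO 3, the cascade's count there is read against that share. The 2 fits share the WT libraries, and their sets of KO libraries were chosen from these counts. GC content followed the fold changes over genes, with Spearman's rho 0.46 for all KO libraries, 0.16 for KO 2 and KO 3, and 0.54 for KO 4 to KO 6, over 17672 to 18043 genes that share libraries. The rho with transcript length was 0.13, 0.29 and 0.05 in the same order. With the GC correction the called genes of the cascade were Gng13 and Pcp2, both lower, and the median over the 10 genes was 0.07.

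Ratios of counts between cascade genes within 1 library do not depend on how libraries are scaled, and they are given as a description with no test. The ratio of Gng13 to Gnb3, the beta subunit of the same G protein, was 0.28, 0.32 and 0.23 in WT. It was 0.13, 0.18, 0.069, 0.084 and 0.058 in KO 2 to KO 6, below WT in every KO library. Gng13 to Gnao1 was 0.24, 0.27 and 0.16 in WT and 0.095, 0.159, 0.10, 0.11 and 0.076 in KO 2 to KO 6, again lower in all 5, with KO 3 just under WT 3. Both denominators had positive fold changes. Gng13 to Pcp2, the member nearest to it in length and overlap, was 0.38 to 0.48 in WT and 0.23 to 0.41 in KO, and only KO 3 lay inside the WT range. Rgs11 to Rgs7 was 1.149, 0.93 and 0.94 in WT. It was 0.55 and 0.82 in KO 2 and KO 3, under all WT values, and 1.36, 1.35 and 1.14 in KO 4 to KO 6, at or above most of them. The ratio of Gpr179 to Trpm1 ranged from 0.56 to 0.62 in WT and from 0.61 to 0.74 in KO, with only KO 3 inside the WT range.

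**Figure D3:**
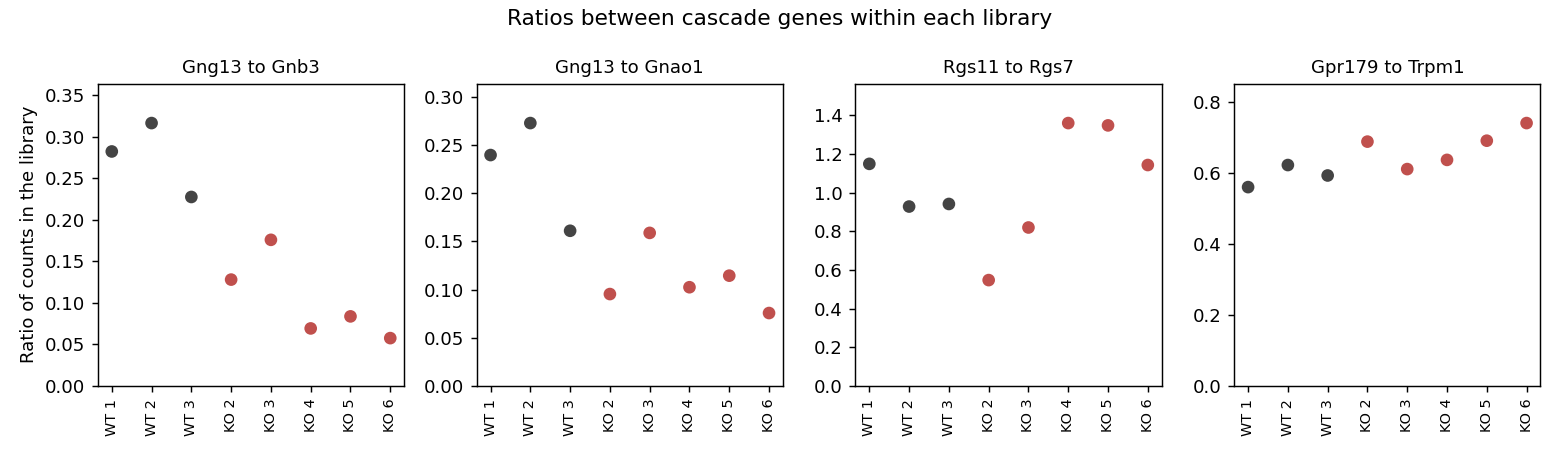
Ratios of counts between pairs of cascade genes in each library, with black points for WT and red points for the libraries labelled KO, on axes that start at 0. Gng13 to Gnb3 and Gng13 to Gnao1 were lower in all 5 KO libraries than in all 3 WT libraries, and Rgs11 to Rgs7 was low in KO 2 and KO 3 only.

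Levels per kilobase of the longest coding transcript order the genes within WT. Pcp2 (122 ± 16.3 CPM per kb, SD, n = 3) and Gng13 (107 ± 26.9) were highest, with overlapping WT ranges of 103 to 135 and 78.0 to 131. Gnao1 followed at 62.2 ± 1.02 and Trpm1 at 39.0 ± 4.42 CPM per kb. Rgs11 (22.6 ± 2.17) and Grm6 (22.1 ± 2.73) overlapped, as did Grm6 and Lrit3 (20.3 ± 0.746), and all WT values of Rgs7 (18.6 ± 0.702) were under those of Lrit3. Gpr179 (14.2 ± 1.04) and Nyx (6.10 ± 0.309) were lowest. In the libraries labelled KO the level of Gng13 was 60.9 ± 10.8 CPM per kb (SD, n = 5) and that of Gnao1 74.1 ± 7.50, so the order of the 2 means was the opposite of that in WT. The order depends on which transcript is taken. By the median length of coding transcripts Pcp2 was at 342 CPM per kb in WT, and Gnao1, at 186, came before Gng13, at 145.

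Other genes of the cascade were read from a list that the member rule did not use. By edgeR's adjusted p 0 of 6 were called in all 8 libraries, beside 7.58% of all tested genes. Of the 6 values 5 were positive, and the median log2 fold change was 0.08. At an unadjusted p under 0.05 edgeR gave 1, and DESeq2 called 1 and limma voom 3. Gnb3, the beta subunit that pairs with Gng13 and is also present in cones, had the largest value. It measured 286, 298 and 246 CPM in WT, and 329, 305, 613, 574 and 568 CPM in KO 2 to KO 6. All KO libraries were above WT, as for 10.8% of tested genes, and KO 4 to KO 6 stood far above KO 2 and KO 3. The log2 fold change was 0.79 (SE 0.24, edgeR adjusted p = 0.069), 0.20 for KO 2 and KO 3 (adjusted p = 0.42) and 1.09 for KO 4 to KO 6 (edgeR adjusted p = 6.92e-07). Gnb5, the beta subunit that binds RGS7 and RGS11, had a log2 fold change of 0.08, and Rgs9bp, which encodes the R9AP anchor that photoreceptors use for RGS9 and that also binds RGS11, 0.06. Rgs7bp, a membrane anchor of the same RGS family, had -0.28, with 0.13 for KO 2 and KO 3 and -0.61 for KO 4 to KO 6 (edgeR adjusted p = 5.60e-05). The Ric-8 chaperones of G protein alpha subunits, Ric8a and Ric8b, had 0.16 and 0.09. For KO 4 to KO 6, 3 of the 6 were called, Gnb3 and Ric8a higher and Rgs7bp lower, beside 42.8% of all tested genes.

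At the synapse itself 3 of 8 listed partners were called, beside 7.58% of all tested genes. Elfn1, the adhesion protein by which rods contact mGluR6, rose from 85.8 ± 1.32 CPM (SD, n = 3) to 123 ± 12.0 CPM (SD, n = 5), a log2 fold change of 0.52 (edgeR adjusted p = 0.017). Dag1, which encodes dystroglycan, rose with a log2 fold change of 0.31 (edgeR adjusted p = 0.039), and Lrit2, a relative of Lrit3, fell by 0.37 on the log2 scale (edgeR adjusted p = 0.032). For each of these 3 the KO and WT libraries did not overlap, as for 10.8% of all genes upward and 10.1% downward. With the GC correction Elfn1 kept its call at 0.29, while Dag1 (0.19) and Lrit2 (-0.26) lost theirs. Of 34 alternatives Elfn1 was called in 21, Lrit2 in 16 and Dag1 in 11. Cacna1f, the pore subunit of the calcium channel of photoreceptor terminals, also had all KO libraries below WT, at 204 to 306 CPM against 327 to 382. Its log2 fold change was -0.43 (edgeR adjusted p = 0.081) over all KO libraries and -0.71 for KO 2 and KO 3 (edgeR adjusted p = 0.047), where it was the only one of the 8 to pass. For KO 4 to KO 6 it was -0.26 (edgeR adjusted p = 0.0059), and 7 of the 8 passed in that fit, beside 42.8% of all tested genes. With the GC correction Cacna1f was called at -0.58, and it was called in 7 of 34 alternatives. In the fit of all 8 libraries the other 4 did not pass. Elfn2, the adhesion partner most like Elfn1, had a log2 fold change of 0.30, Egflam (pikachurin, a ligand of dystroglycan) 0.35, Cacna2d4 (an auxiliary calcium channel subunit) 0.17 and Lrit1 -0.06.

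Among 14 relatives of the cascade genes, which include other group III glutamate receptors and Gi alpha subunits, 2 were called and both were higher. Of all tested genes 7.58% were called, 4.74% higher. Gnai2, an inhibitory alpha subunit of many cells, had a log2 fold change of 0.52 (edgeR adjusted p = 0.017). Grm4, another group III metabotropic glutamate receptor, had 0.62 (edgeR adjusted p = 0.031) at 9.99 ± 0.735 CPM in WT (SD, n = 3), well below Grm6. With the GC correction Gnai2 kept its call at 0.30 and Grm4 lost it at 0.36 (edgeR adjusted p = 0.15). Of 34 alternatives Gnai2 was called in 23 and Grm4 in 16. Gpr158, the closest relative of Gpr179, gained a call with that correction. For KO 4 to KO 6 edgeR called 12 of the 14, 8 higher and 4 lower, where 42.8% of all genes were called. Grm4 shares only 5 words of 31 bases with Grm6.

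Markers of bipolar cells were read beside the cascade genes, since the cascade belongs to these cells. Of 7 rod bipolar markers 1 was called, and their median log2 fold change was -0.12. Of all tested genes 7.58% were called, 2.84% lower. The called marker was Sebox, a homeobox gene, which fell from 44.6 ± 0.973 CPM (SD, n = 3) to 30.6 ± 1.80 CPM (SD, n = 5), with a log2 fold change of -0.55 (edgeR adjusted p = 0.0070). Prkca, the classical rod bipolar marker, did not pass at -0.10 (edgeR adjusted p = 0.64). The summed level of the 7 markers was 746 to 760.2 CPM in WT and 622 to 794 CPM in KO. KO 2 lay above every WT library and the other 4 KO libraries below. The summed level of the 10 cascade genes ranged from 1182 to 1258 CPM in WT and from 1131 to 1438 CPM in KO. KO 3 lay below every WT library and the other 4 KO libraries above. Of 6 ON cone bipolar markers and 10 OFF cone bipolar markers 0 were called by edgeR in all 8 libraries, with medians of 0.18 and 0.09. At an unadjusted p under 0.05 these were 0 and 4, and DESeq2 called 0 and 2 and limma voom 0 and 8. EdgeR called 0 and 2 with the GC correction, and 0 and 8 (4 higher, 4 lower) for KO 4 to KO 6. Of the 7 rod bipolar markers it called 6 for KO 4 to KO 6, with 2 higher and 4 lower. In that fit 42.8% of all tested genes were called. Of 5 markers of all bipolar cells, Samsn1 was called (log2 fold change -0.54, edgeR adjusted p = 0.043), and not with the GC correction (-0.27). Relative to Prkca in the same library, Gpr179 counted 0.32 to 0.36 in WT and 0.41 to 0.61 in KO, and Nyx 0.079 to 0.085 and 0.092 to 0.13, both without overlap. The same ratio overlapped between the groups for the other 5 genes computed. It was 0.22 to 0.28 in WT and 0.22 to 0.51 in KO for Grm6, 0.51 to 0.62 and 0.60 to 0.88 for Trpm1, and 0.12 to 0.13 and 0.12 to 0.19 for Lrit3. For Pcp2 it was 0.38 to 0.51 and 0.29 to 0.51, and for Gng13 0.14 to 0.25 and 0.093 to 0.16.

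**Figure D4:**
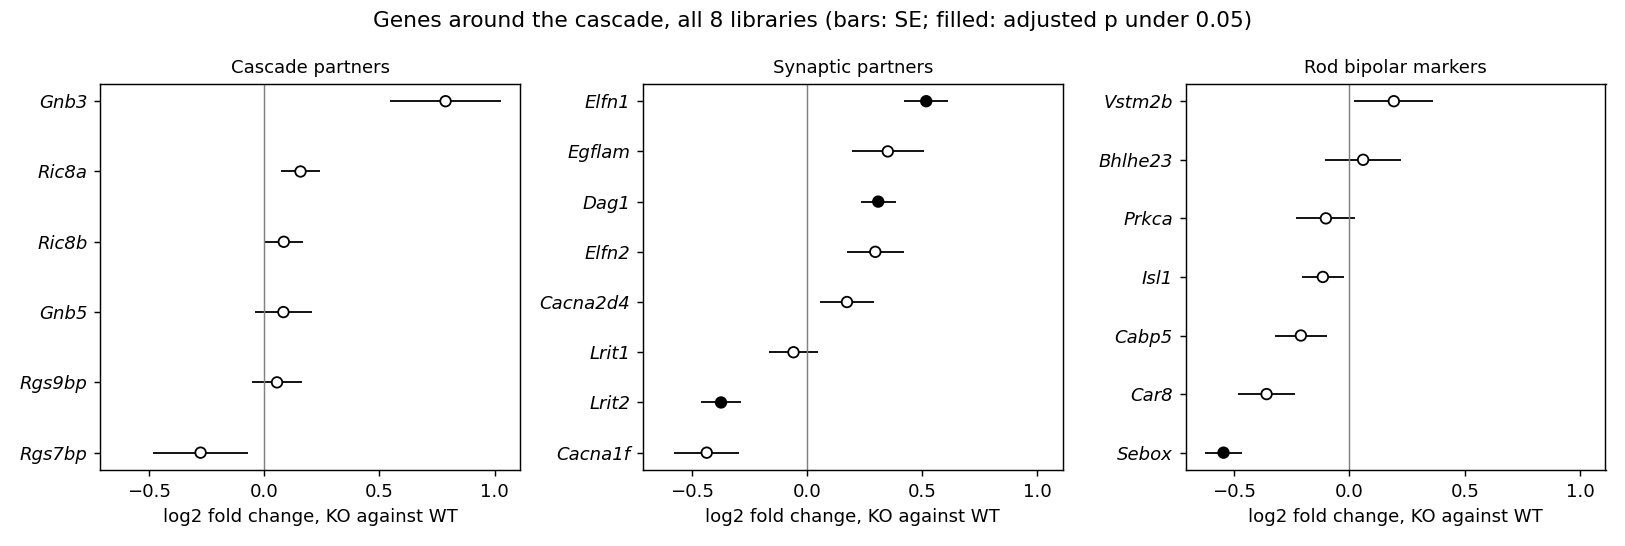
Log2 fold change (points) with standard error (bars) from edgeR over all 8 libraries for 6 cascade partners, 8 synaptic partners and 7 rod bipolar markers, with filled points for an adjusted p under 0.05. Elfn1 and Dag1 were called higher and Lrit2 and Sebox lower, while none of the 6 cascade partners was called by edgeR.

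Markers of other cell types were read in the same way, and their part in the results was not tested. Called were 2 of 5 cone, 1 of 5 Müller glia, 1 of 4 horizontal cell and 2 of 5 microglia markers, beside 7.58% of all tested genes. The called markers were the cone genes Pde6h (log2 fold change -0.74) and Gnat2 (-0.47), the Müller glia gene Sox9 (0.62), the horizontal cell gene Calb1 (-0.49, with the other 3 of its list positive and a list median of 0.04) and the microglia genes Csf1r (0.69) and Tmem119 (0.94). Of the 5 microglia markers 4 were positive (median 0.43, lowest -0.07). Of the 5 cone markers 1 was positive (median -0.58, highest 0.05), and of the 5 Müller glia markers all 5 were (median 0.27). With the GC correction Calb1, Csf1r and Tmem119 were not called, and Calb1 was at -0.08. For KO 2 and KO 3 edgeR called 2 of 5 cone markers and 0 of the Müller glia, horizontal cell and microglia markers (2, 1 and 3 at an unadjusted p under 0.05), beside 0.891% of all genes. One of the 2 was Arr3, cone arrestin, at -1.33 (edgeR adjusted p = 0.029), which is named after its values were seen. For KO 4 to KO 6 edgeR called 4 of 5 cone (all lower), 3 of 5 Müller glia, 1 of 4 horizontal cell and 3 of 5 microglia markers, beside 42.8%. Of 34 alternatives Pde6h was called in 32, Gnat2 in 20, Sox9 in 18, Calb1 and Csf1r in 14 and Tmem119 in 13. Of 6 rod, 6 amacrine, 6 ganglion cell and 5 pigment epithelium markers 0 were called by edgeR, with 4, 1, 2 and 1 at an unadjusted p under 0.05. In the same order DESeq2 called 1, 0, 0 and 1 and limma voom 4, 1, 3 and 2, and edgeR called 2, 0, 1 and 1 with the GC correction and 4, 2, 3 and 2 for KO 4 to KO 6. Summed cone markers were 779.5 to 984 CPM in WT and 518 to 692 CPM in KO, without overlap.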

How the data were processed

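RNA from retina was sequenced in 3 WT and 5 KO libraries. Per the submitters' processing notes, Trim Galore, Salmon 1.10.2, DESeq2 and GRCm38 were used; their order and the annotation release are not given in the sources used here. The authors deposited estimated counts per gene as whole numbers, with at least 16 counts per gene in total. Salmon divides reads between transcripts that share sequence, which bears on overlapping genes. Counts were compared with edgeR 4.0.16 under R 4.3.3 (TMM, filterByExpr, quasi-likelihood test, no covariate, Benjamini-Hochberg over all tested genes); 20167 of 26824 genes were tested. Levels are TMM-scaled CPM. Standard errors are the fold change over the square root of edgeR's F. Positions, coding sequences, lengths and GC content came from GENCODE M21. The test was checked on simulated data. P-values set the difference between the groups against the spread between libraries within a group. The labels name no batch, so none is allowed for.

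The members and lists were chosen with earlier results of these data known. Named genes are the 10 members, all genes of both partner lists, called genes of the other lists, Kcnv2, and genes a result turns on (Prkca, Chtf18, Pet100, Gm12660, Arhgdig, Ddx3y, Xist), chosen after their values were seen. One listed marker is not reported here, and its list is counted without it. Alternatives were DESeq2 1.42.0 and its size factors, library size alone, limma voom 3.58.1 with library quality weights (which changes both the method and the weight of each library; "limma voom" means this fit throughout), robust estimation, other filters, GC and length offsets, left-out libraries, and the replicate number as a block. The length offset, the combined offsets and the crossed block were added after seeing the data. Within each group, libraries differed by more than sampling noise (chi-square per degree of freedom at least 5.85).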

Additional observations from a re-analysis of the deposited data

Results flagged for a closer look

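Of 24 genes (the cascade, its partners and its synaptic partners), 6 had 1 library labelled KO that stood apart from the other 4 on the log2 scale, with a gap to its neighbour above 0.71 of the range (Dixon's limit for 5 libraries). Chance gives about 1 in 20 groups, or 1.2 here. KO 3 was the low library for Gpr179 (0.816 of the range), Gnao1 (0.764), Egflam (0.856) and Cacna2d4 (0.714). KO 2 was the high library for Rgs9bp (0.724) and Lrit1 (0.743). KO 3 is the library with lens transcripts at 5.47% of its counts. With the lens list left out of the counts before scaling, Gpr179 and Gng13 were still the only members called.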

How the results depend on the processing

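Of 340 values (10 members, 34 alternatives), 266 kept direction and side of the threshold, 36 lost and 31 gained a call, and 7 changed sign, none of them called. The causes were not tested unless named.

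Genes called (1529 over all libraries) were 3001 with DESeq2, 8248 with limma voom and library quality weights (voom below), 973 with GC and length offsets, 180 with KO 2 and KO 3 alone, 164 with those and the length offset, and 118 to 8416 with libraries left out. Members called (2) were 9 with voom, 1 with no filter, with the length offset or with both offsets, 0 with KO 2 and KO 3 (with or without the length offset), and 0 to 8 with libraries left out. Voom gave Grm6 0.57, Trpm1 0.33, Nyx 0.32, Lrit3 0.23, Gnao1 0.28, Rgs7 -0.32 and Pcp2 -0.25. Rgs7 also passed with library size alone (-0.32), DESeq2 (-0.29) and a floor of 1 on mean log2 CPM (-0.31), and Pcp2 with the GC offset (-0.38).

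Gpr179 lost its call with library size alone (0.45), no filter (0.48), the GC (0.27), length (0.41) or both offsets (0.13), and KO 2 and KO 3 without (0.32) and with the length offset (0.17). Gng13 lost it with KO 2 and KO 3 (-0.69, and -0.48 with the length offset). Left-out libraries moved Gpr179 over 0.40 to 0.58, Gng13 -0.999 to -0.64, Grm6 0.21 to 0.68, Trpm1 0.20 to 0.36, Nyx 0.22 to 0.44, Lrit3 0.075 to 0.26, Gnao1 0.19 to 0.33, Rgs7 -0.34 to -0.23, Rgs11 -0.50 to 0.037 and Pcp2 -0.42 to -0.22. The call of Gpr179 ended without any one of WT 1, WT 2, WT 3, KO 4, KO 5 or KO 6. Without KO 3, 7 members and 3992 of 19920 genes were called, and without WT 1, WT 2, KO 4 or KO 5, 0 in edgeR.

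Numbers 2 and 3 occur in both groups, and deviations of same-numbered libraries did not correlate positively (-0.19). This value rests on only 4 libraries, so it cannot tell whether same-numbered libraries share more than a number. With the replicate block on WT 2, WT 3, KO 2 and KO 3, 52 genes and 0 members were called, with Gpr179 at 0.33, Gng13 at -0.61 and Lrit3 at -0.0103. The same 4 libraries with no replicate block gave 14 and 0, with 0.34, -0.65 and -0.0094. The crossed replicate block gave 527 genes and 2 members (Rgs11 at -0.75 and Gng13 at -0.61), with Lrit3, not called, at -0.0102.

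Sign changes, none of them called, were as follows. Grm6 was -0.0059 with KO 2 and KO 3 (-0.069 with the length offset), Gnao1 -0.027 with both offsets, and Rgs11 0.037 without KO 2 and KO 3. Gnb5 was -0.0044 with the GC offset, -0.045 with KO 2 and KO 3, -0.016 without KO 5 and KO 6, and -0.093 (block and crossed) or -0.096 (no block) in the 4 libraries. Rgs9bp was -0.0090 (length), -0.049 (both offsets) and -0.0025 (KO 2 and KO 3, length), and -0.0054, -0.0158 and -0.0017 without KO 2 alone, with KO 5 or with KO 6 (up to 0.11 without others). Rgs7bp was 0.13 with KO 2 and KO 3, and 0.088 (block), 0.0882 (crossed) and 0.093 (no block). Ric8a was -0.016 and -0.026 with GC and both offsets, Elfn2 -0.053 with both, and Cacna2d4 -0.033 with both and -0.095 with KO 2, KO 3 and length. Lrit1 was 0.030 with KO 2 and KO 3, 0.0044 with no block and 0.0040 without KO 3 and KO 6 (down to -0.13 without others). Prkca was 0.045 with KO 2 and KO 3, 0.0014 without KO 5 and KO 6 (down to -0.24 without others), 0.032 under both blocks and 0.0455 with none.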
